A study of Mus musculus with 6 samples.

Results

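The CD300 family was examined in spleens of NOD.B10 and BL/10 mice as 8 genes, namely Cd300a, Cd300c2, Cd300e, Cd300lb, Cd300ld, Cd300ld3, Cd300lf and Cd300lg. The rule took them by gene name and used no measured value, and all 8 were found among the 47729 genes of the count table. All 8 also passed edgeR's filter on low counts. NOD.B10 (NOD.B10Sn-H2b/J) is an inbred strain that develops a disease like primary Sjögren's syndrome (pSS), with the autoimmune-prone NOD background and the H2b haplotype of the histocompatibility region. BL/10 (C57BL/10, written C57BL10/SnJ in the labels) is the healthy control strain. All mice were females, with no treatment or engineered allele named, and RNA of the whole spleen was sequenced (n = 3 each).

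The strain of each library is given in conflicting ways. Titles and strain fields name the strain opposite to the one in the descriptions and column names for all 6 libraries, and the column names were used here. Every direction below would be reversed under the titles. The NOD.B10 libraries and BL/10 replicate 1 are labelled 26 weeks, and BL/10 replicates 2 and 3 are labelled 36 weeks, although the protocol calls the strains matched in age. These ages stand in the same sample records as the titles, which name the samples of 36 weeks NOD.B10. It is therefore not settled which libraries the age of 36 weeks belongs to. The total counts were between 15662712 and 18298451. The libraries also differed in pancreas acinar genes, 15 of which summed to 13900, 2120 and 113 CPM (normalized counts, scaled by TMM to a common library size) in BL/10 and to between 22.7 and 31.5 CPM in NOD.B10. Of 15330 genes tested, 17.3% passed an adjusted p of 0.05 between the strains.

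CD300 proteins are cell surface receptors with a single immunoglobulin-like domain, found mainly on myeloid cells. Several bind lipids that are exposed on dying cells, such as phosphatidylserine. Some carry inhibitory tyrosine motifs in a long cytoplasmic tail and recruit phosphatases. Others have a short tail and signal through the adaptors DAP12 (Tyrobp) or Fc receptor gamma chain (Fcer1g). Such pairs of inhibitory and activating receptors set the threshold at which neutrophils, monocytes, macrophages and mast cells respond. Cd300lg, also called nepmucin, differs from the rest as a receptor of vascular endothelium.

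The genes of 7 members lie together within 0.244 Mb of chromosome 11, from Cd300a (114890041 to 114904654 of GRCm38, plus strand) to Cd300lf (115116214 to 115133992, minus strand). Cd300lg lies on the same chromosome from 102041509 to 102055620, 12.8 Mb away, and so outside the cluster. No exon base of any member overlapped an exon of another gene, although Cd300lf lies within the span of Rab37 on the other strand and Gm11699 overlaps the span of Cd300lb. Cd300c, Cd300ld2, Cd300ld4 and Cd300ld5 are further genes of the cluster and were examined beside the members.

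The genes named Cd300ld3, Cd300ld4 and Cd300ld5 are close copies, which limits what short reads can show of them. The coding parts of Cd300ld3 and Cd300ld4 were identical at 731 of 735 aligned bases, and those of Cd300ld4 and Cd300ld5 at 734 of 735. The coding parts of Cd300ld (663 bases) and Cd300ld2 (915 bases) differ in length from that of Cd300ld3 (735 bases). They were identical to it at 568 of 735 and 711 of 915 aligned columns, with gaps counted as differences. For Cd300ld2, most of the columns that were not identical were gaps, as its coding part is longer. The start of the coding part is shown because 3 of the differences between Cd300ld3 and Cd300ld4 fall in it. These are the first 90 coding bases in GENCODE M21, with bases that differ from Cd300ld3 in capitals:
Cd300ld3: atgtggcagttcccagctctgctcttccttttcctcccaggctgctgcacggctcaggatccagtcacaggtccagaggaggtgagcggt
Cd300ld4: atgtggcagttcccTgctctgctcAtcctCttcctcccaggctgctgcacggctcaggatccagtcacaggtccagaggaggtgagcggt
Cd300ld5: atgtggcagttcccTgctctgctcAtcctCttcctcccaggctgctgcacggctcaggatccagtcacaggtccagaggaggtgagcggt
Cd300ld: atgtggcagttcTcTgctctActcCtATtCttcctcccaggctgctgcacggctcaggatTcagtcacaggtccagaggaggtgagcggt
Over this stretch Cd300ld4 and Cd300ld5 had the same sequence, and Cd300ld differed from Cd300ld3 at 8 bases.

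Reads were 50 bases long, and windows of that length were compared between the transcripts of all genes. Of the windows of Cd300ld3, 82.1% also occurred in another gene, and for Cd300ld4 and Cd300ld5 the shares were 93.8% and 100%. Among the other members the share was 7.16% for Cd300c2, 3.89% for Cd300ld, 3.45% for Cd300a, 2.44% for Cd300lf, 0.141% for Cd300lg, and 0 of 2956 and 2039 windows for Cd300lb and Cd300e. With the counting command in the header, reads that map to several places are left out. Thus, the counts of Cd300ld3 come from a small part of its transcript, and the near absence of counts on Cd300ld4 (0 in NOD.B10 and at most 1 in BL/10) and Cd300ld5 (0 in NOD.B10 and at most 3 in BL/10) does not describe their expression.

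**Figure D1:**
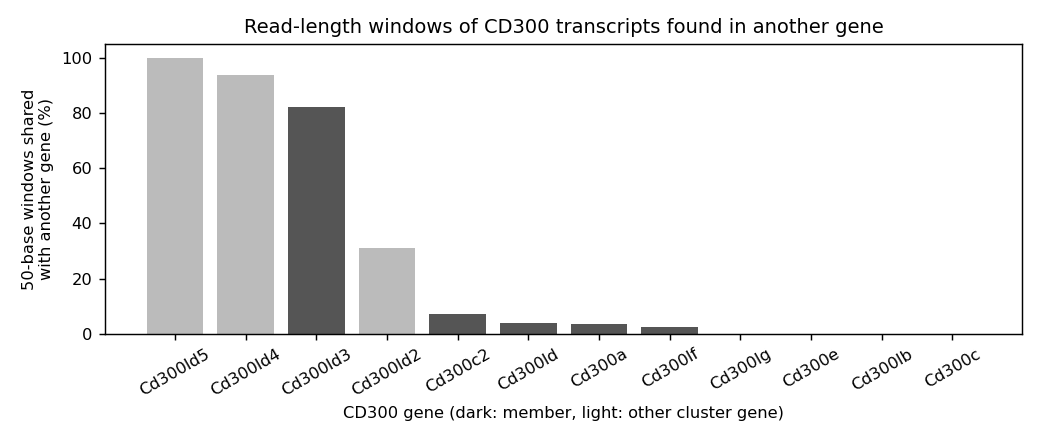
Bars give the percentage of 50-base windows of the transcripts of each CD300 gene that also occur in a transcript of another gene, on either strand, with members in dark and other genes of the cluster in light grey. Cd300ld5 (100%), Cd300ld4 (93.8%), Cd300ld3 (82.1%) and Cd300ld2 (31%) stand apart from the others, which are at 7.16% or below.

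Of the 8 members, 4 (Cd300ld, Cd300e, Cd300lb and Cd300lg) passed the quasi-likelihood test of edgeR at an adjusted p of 0.05, all 4 with a lower level in NOD.B10. In that direction, 8.22% of all tested genes passed. The count was 2 without NOD.B10 replicate 2 or without BL/10 replicate 3, and 1 (Cd300ld) in the libraries labelled 26 weeks, which leave 1 BL/10 library. In the other direction, 0 of 8 members passed in either edgeR or DESeq2, against 9.11% of all tested genes in edgeR, and 1 member (Cd300ld3) had an unadjusted p under 0.05. The libraries of the strains did not overlap for 5 of the 8 members, against 38% of all tested genes. Cd300a, Cd300c2 and Cd300lf overlapped between the strains. The log2 fold change was negative for 4 members and positive for 4, and the median of -0.25 falls between these groups. Over all tested genes the median was 0.0006. As these are whole spleens, fewer cells of a type and less RNA per cell cannot be told apart. Reads of both strains were counted on the same mouse build, GRCm38. Differences between the strains in gene sequence or copy number, which can alter the reads assigned to a gene, were not examined.

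**Figure D2:**
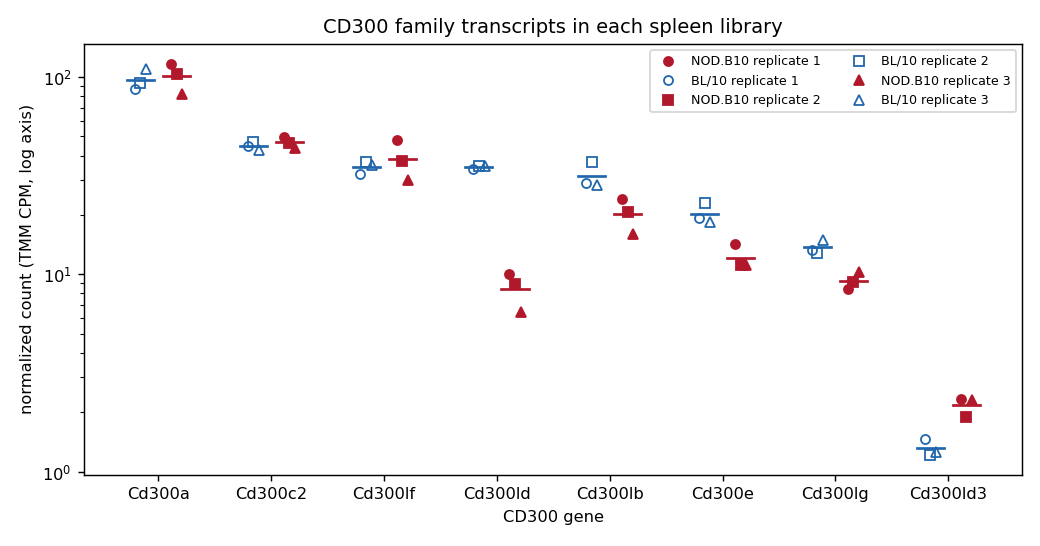
Points give the normalized count (TMM CPM, log axis) of each CD300 gene in each library, with open blue symbols for BL/10, filled red symbols for NOD.B10, and short lines for the means of 3 libraries. Cd300ld is the gene with the widest gap, at 6.41 to 9.99 CPM in NOD.B10 and 34.3 to 35.4 CPM in BL/10.

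The 3 members of the cluster that were lower encode activating receptors, but Cd300c2, which also encodes an activating receptor, did not pass. Cd300ld (ENSMUSG00000034641, 114982274 to 114989922, minus strand), also named CLM-5 or LMIR4, is a myeloid receptor that pairs with the Fc receptor gamma chain. It had 9.99, 8.91 and 6.41 CPM in NOD.B10 replicates 1, 2 and 3 and 34.3, 35.4 and 35.3 CPM in BL/10. All NOD.B10 libraries lay far below the BL/10 libraries, which were almost equal. Cd300ld was 4.15-fold lower in NOD.B10 (log2 fold change -2.05, standard error 0.16, adjusted p = 0.000222 in edgeR). Among all genes, 1.48% of those tested had a lower log2 fold change. It kept its direction and an adjusted p under 0.05 in all 14 other fits (other normalizations, filters and tools, a replicate block, and left-out libraries), with log2 fold changes between -2.19 and -1.89, and one of these fits used only the libraries labelled 26 weeks (log2 fold change -2.03). That fit holds 1 BL/10 library, which is assumed to vary like those of NOD.B10.

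Cd300e (ENSMUSG00000048498, 115051917 to 115062177, minus strand) encodes CLM-2, an activating receptor of monocytes. Its level was 14.2, 11.1 and 11.1 CPM in NOD.B10 and 19.4, 23.1 and 18.5 CPM in BL/10, so that the libraries did not overlap. With a log2 fold change of -0.74 and a standard error of 0.14, Cd300e was called lower (adjusted p = 0.0123 in edgeR). Its adjusted p was under 0.05 in 13 of the 14 other fits. With only the libraries labelled 26 weeks, which leave 1 BL/10 library, the log2 fold change was -0.68 and the adjusted p in edgeR was 0.0915.

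Cd300lb (ENSMUSG00000063193, 114922781 to 114934386, minus strand), also named CLM-7 or LMIR5, signals through DAP12. It had 24.1, 20.6 and 16 CPM in NOD.B10 and 29.1, 36.9 and 28.5 CPM in BL/10, again without overlap. Its log2 fold change of -0.64 had a standard error of 0.17 and was just past the threshold (adjusted p = 0.0406 in edgeR). The call was lost without NOD.B10 replicate 2 or 3 (adjusted p = 0.0879 and 0.103 in edgeR), without BL/10 replicate 2 or 3 (0.12 and 0.0645), and in the libraries labelled 26 weeks (0.243), and the log2 fold change stayed between -0.78 and -0.49.

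Cd300c2 (ENSMUSG00000044811, 114996721 to 115001880, minus strand) encodes CLM-4 or MAIR-II, a further activating receptor, found on macrophages among other cells. It had 49.7, 46.5 and 43.5 CPM in NOD.B10 and 44.9, 46.9 and 42.7 CPM in BL/10. The libraries of both strains lay within the same narrow range. The log2 fold change was 0.06 with an adjusted p of 0.689 in edgeR, and its 95% interval ran from -0.15 to 0.26, which leaves out a change as large as that of the 3 genes above. With raw library totals in place of TMM, its NOD.B10 libraries (45.2 to 50.4 CPM) lay just above those of BL/10 (41.9 to 45.1 CPM).

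Cd300ld3 (ENSMUSG00000069607, 115042131 to 115048409, minus strand) is named CLM-3 or LMIR7 and was the member with the fewest reads. NOD.B10 had 39, 31 and 41 reads on it and BL/10 had 27, 18 and 22, or 2.33, 1.90 and 2.30 against 1.47, 1.21 and 1.25 CPM. All 3 NOD.B10 libraries lay above those of BL/10, as for 20.5% of all tested genes. Its log2 fold change was 0.73 (standard error 0.21), and its adjusted p in edgeR was 0.0504, just short of the threshold. It passed without BL/10 replicate 1 (adjusted p = 0.0448 in edgeR), with at least 10 counts in every library (0.0448), and without hemoglobin, immunoglobulin and pancreas acinar genes (0.0473), while DESeq2 gave an adjusted p of 0.138.

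The inhibitory receptors did not pass the test. Cd300a (ENSMUSG00000034652) encodes CLM-8 or MAIR-I, which carries inhibitory motifs and binds phosphatidylserine. It had 117, 103 and 82.3 CPM in NOD.B10 and 87.2, 93.6 and 110 CPM in BL/10. The strains overlapped over most of their range (log2 fold change 0.05, standard error 0.15, adjusted p = 0.827 in edgeR), and the 95% interval ran from -0.29 to 0.40.

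Cd300lf (ENSMUSG00000047798) encodes CLM-1, an inhibitory receptor that also serves as the entry receptor of murine norovirus. Its level was 47.8, 37.7 and 29.9 CPM in NOD.B10 and 32.3, 37.0 and 35.8 CPM in BL/10. The NOD.B10 libraries lay on both sides of the BL/10 libraries. Cd300lf had a log2 fold change of 0.14 with a 95% interval from -0.25 to 0.52 (adjusted p = 0.597 in edgeR). In both genes NOD.B10 replicate 1 was highest and replicate 3 lowest, as in Cd300lb, Cd300c2 and Cd300ld.

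Cd300lg (ENSMUSG00000017309, plus strand), the endothelial receptor outside the cluster, had 8.43, 9.15 and 10.3 CPM in NOD.B10 and 13.3, 12.8 and 14.9 CPM in BL/10. The libraries did not overlap, and Cd300lg was called 1.47-fold lower (log2 fold change -0.56, standard error 0.13, adjusted p = 0.023 in edgeR). Without NOD.B10 replicate 1 or 2, without BL/10 replicate 3 or in the libraries labelled 26 weeks, its adjusted p in edgeR was 0.0958, 0.0637, 0.0677 or 0.174. Of 12 endothelial marker genes, 4 were higher and 1 was lower in NOD.B10. Their summed level was 840 to 987 CPM in NOD.B10 and 725 to 937 CPM in BL/10, and their part in the result was not tested. Lyve1 (log2 fold change 2.73), Madcam1 (0.80) and Pecam1 (0.59) were among those that rose, and Emcn fell. With NOD.B10 replicate 1, NOD.B10 replicate 3 or BL/10 replicate 2 left out, 2 endothelial genes were higher, and the call of Emcn was lost without any 1 library except BL/10 replicate 1.

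**Figure D3:**
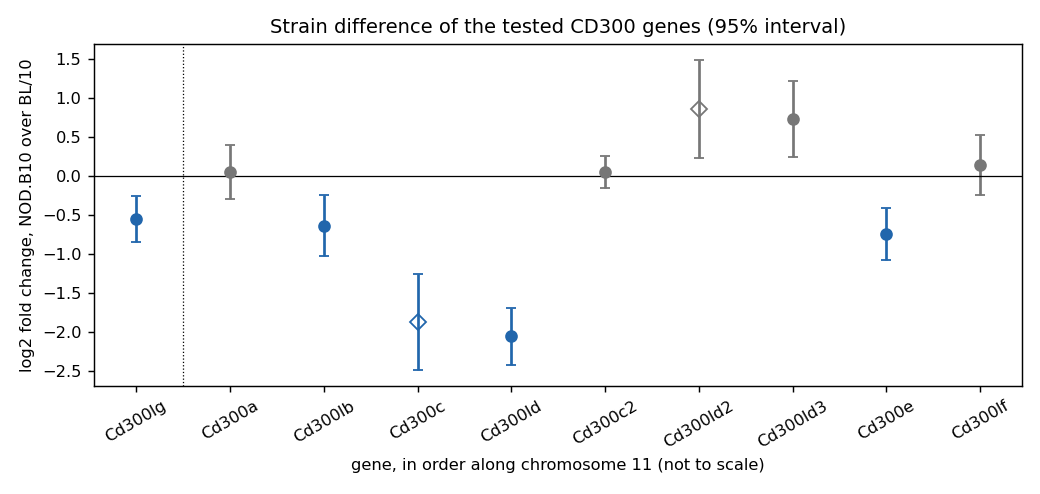
Points give the log2 fold change of NOD.B10 over BL/10 with its 95% interval for the 10 tested CD300 genes in their order along chromosome 11, with filled circles for members, open diamonds for other genes of the cluster, and blue for an adjusted p under 0.05. Cd300ld (-2.05) and Cd300c (-1.87) lie lowest, and the dotted line sets off Cd300lg.

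Among the other genes of the cluster, Cd300c and Cd300ld2 passed the filter on low counts. Cd300c, which encodes CLM-6, is the closest relative of Cd300c2 among the genes compared, with 84.3% identity of their coding parts. It lies beside Cd300ld on the chromosome and had 20, 14 and 21 reads in NOD.B10 against 57, 76 and 66 in BL/10. The libraries were well apart, and Cd300c was called 3.65-fold lower (log2 fold change -1.87, standard error 0.27, adjusted p = 0.00358 in edgeR). Its direction and call held in all 14 other fits. Cd300ld2 had 20, 20 and 26 reads in NOD.B10 against 12, 14 and 10 in BL/10. It was higher in each NOD.B10 library, but did not pass (log2 fold change 0.86, standard error 0.27, adjusted p = 0.0663 in edgeR).

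Cd300ld and Cd300c were thus called lower. Cd300ld3 and Cd300ld2, from the same cluster, had higher values in every NOD.B10 library but did not pass. That order of the libraries was found for 20.5% of all tested genes. Genes outside the family around the cluster were then examined. Of 28 tested genes within 500 kb of the 7 clustered members, 3 were higher in NOD.B10 (Grin2c, Hid1 and Gm26613) and 0 were lower in edgeR. DESeq2 called 2 higher and 0 lower, and 3 genes of the region had an unadjusted p under 0.05 in edgeR with a lower level. The median log2 fold change of the region was 0.07. That is 10.7% called, under the 17.3% of all tested genes. Rab37, which surrounds Cd300lf, had a log2 fold change of -0.07 (adjusted p = 0.788 in edgeR). Within 500 kb of the span from Cd300lg to Cd300lf, 14 of 149 tested genes were higher and 13 were lower.

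Levels of different members were compared per kilobase of exon. In BL/10, Cd300c2 was highest with 35.2 ± 1.62 CPM per kb (SD, n = 3), ahead of Cd300a with 20.5 ± 2.53 and Cd300ld with 13.2 ± 0.242 CPM per kb. Cd300lb (10.8 ± 1.62) and Cd300e (9.73 ± 1.16) followed with overlapping libraries. Cd300lf (6.80 ± 0.480), Cd300lg (4.99 ± 0.412) and Cd300ld3 (1.54 ± 0.163) were lowest, each apart from the next. The receptor with the highest level was thus one whose level overlapped between the strains.

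In NOD.B10, Cd300c2 (36.5 ± 2.41 CPM per kb, SD, n = 3) and Cd300a (21.3 ± 3.72) were again the highest. Cd300lf (7.47 ± 1.74), Cd300lb (6.94 ± 1.39) and Cd300e (5.80 ± 0.852) came next, and neighbors among these overlapped. Cd300ld was seventh of 8 in order with 3.19 ± 0.695 CPM per kb, and overlapped both Cd300lg (3.39 ± 0.341) and Cd300ld3 (2.56 ± 0.281). The level of Cd300ld3 rests on the few bases that reads can assign to it and is therefore a low estimate.

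**Figure D4:**
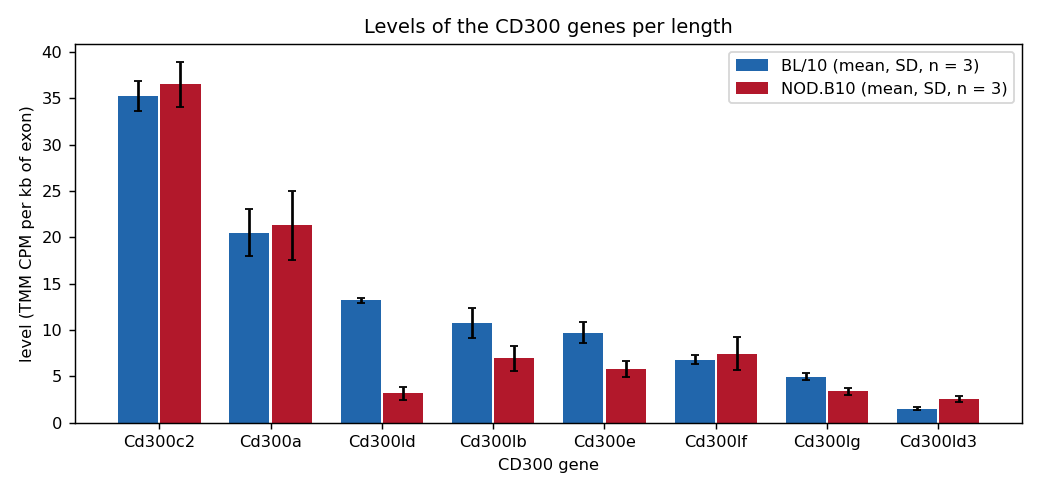
Bars give the mean level of each CD300 gene in TMM CPM per kb of exon, with error bars for the SD of 3 libraries, for BL/10 in blue and NOD.B10 in red. The genes stand in the order of BL/10, in which Cd300ld ranks 3 (13.2 CPM per kb), while in NOD.B10 it is at 3.19 CPM per kb.

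The total and the makeup of the family were then compared. Summed over the 8 members, the level per kb was 97.7, 86.8 and 77.0 in NOD.B10 against 98.7, 107 and 103 in BL/10. The totals of the strains did not overlap, but NOD.B10 replicate 1 was close to BL/10 replicate 1. Cd300ld made up 3.87%, 3.88% and 3.14% of this total in NOD.B10 against 13.1%, 12.5% and 13% in BL/10. The share of Cd300c2 was 42.1% ± 2.22 (SD, n = 3) in NOD.B10 and 34.2% ± 1.52 in BL/10, and that of Cd300a was 24.3% ± 1.53 and 19.9% ± 2.39. Shares of a total are not independent, so a smaller share of Cd300ld raises those of the others.

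Ratios within a library do not depend on its normalization factor. Per kb, the ratio of Cd300ld to Cd300a was 0.152, 0.155 and 0.139 in NOD.B10 against 0.704, 0.678 and 0.573 in BL/10. The values of NOD.B10 were close to each other even though both genes varied between its libraries. The ratio of Cd300ld to Cd300ld3 ran from 0.896 to 1.51 in NOD.B10, and BL/10 had 7.53 to 9.45. As Cd300ld3 had 18 to 41 reads a library, from a small part of its transcript, the size of this ratio does not compare the expression of the 2 genes. By contrast, the ratio of the 2 inhibitory receptors, Cd300lf to Cd300a, was 0.349 ± 0.0223 (SD, n = 3) in NOD.B10 and 0.334 ± 0.0333 in BL/10, and overlapped.

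The promoters of members that were lower in NOD.B10 are shown beside that of Cd300ld3. Cd300ld and Cd300ld3 are similar in sequence and had log2 fold changes of opposite sign, although that of Cd300ld3 did not pass. RefSeq promoters of GRCm38.p6 were matched by symbol for 7 of the 8 members. The 250 bases before the start of transcription are printed 5′ to 3′ on the strand of the gene (minus for all), with matches to GAGGAAGT or TTNCNNAA in capitals. The first of these motifs follows the binding site of PU.1 (Spi1) and the second that of C/EBP factors, both regulators of myeloid genes:
Cd300ld, chr11:114989887-114990136: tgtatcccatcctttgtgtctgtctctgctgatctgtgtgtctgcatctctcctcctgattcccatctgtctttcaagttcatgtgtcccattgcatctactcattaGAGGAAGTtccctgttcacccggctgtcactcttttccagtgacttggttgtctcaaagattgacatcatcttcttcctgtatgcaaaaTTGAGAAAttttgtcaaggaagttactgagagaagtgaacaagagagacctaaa
Cd300ld3, chr11:115048331-115048580: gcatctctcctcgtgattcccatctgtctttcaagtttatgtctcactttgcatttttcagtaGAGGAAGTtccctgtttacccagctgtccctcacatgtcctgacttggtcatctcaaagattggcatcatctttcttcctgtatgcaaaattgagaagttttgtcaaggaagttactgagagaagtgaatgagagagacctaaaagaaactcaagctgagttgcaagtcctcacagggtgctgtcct
Cd300lb, chr11:114934372-114934621: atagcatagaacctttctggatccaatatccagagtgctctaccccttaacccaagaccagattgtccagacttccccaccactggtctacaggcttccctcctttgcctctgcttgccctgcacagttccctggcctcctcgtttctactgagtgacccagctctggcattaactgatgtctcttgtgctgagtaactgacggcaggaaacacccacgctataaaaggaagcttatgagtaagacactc
Cd300e, chr11:115062040-115062289: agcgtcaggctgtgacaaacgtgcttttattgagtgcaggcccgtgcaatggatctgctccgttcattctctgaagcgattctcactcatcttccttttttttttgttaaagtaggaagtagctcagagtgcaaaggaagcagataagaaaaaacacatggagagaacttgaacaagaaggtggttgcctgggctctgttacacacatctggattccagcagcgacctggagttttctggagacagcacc
The promoters of Cd300ld and Cd300ld3 were identical at 223 of 258 aligned bases (86.4%), and those of Cd300ld4 and Cd300ld5 at all 300.

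Motifs were searched on both strands from 250 bases before to 50 bases after the start. GAGGAAGT was found in the promoters of Cd300ld (143 bases before the start), Cd300ld3 (187 bases before) and Cd300lf, and in 3.2% of all 32851 promoters. TTNCNNAA, found in 40.7% of all promoters, was found in those of Cd300ld, Cd300a and Cd300lf. Both motifs were thus in the promoters of Cd300ld and Cd300lf. A motif of interferon regulatory factors (GAAA, 2 further bases and GAAA) was found in 3.44% of all promoters and among the members in that of Cd300c2. The promoters of Cd300lb and Cd300e held none of these letters, which says nothing of the factors. Transcripts of Spi1 had a log2 fold change of -0.10 (adjusted p = 0.597 in edgeR), and of 10 myeloid transcription factor genes, Cebpe was lower (-2.39, adjusted p = 0.00245 in edgeR) and the others did not pass.

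The partners of CD300 receptors were examined as a list of 14 genes for adaptors, kinases, phosphatases, co-receptors and ligands, all of which were tested. Of these, 3 were higher and 3 lower in NOD.B10, and the list's median log2 fold change was 0.13. The 3 lower genes were the adaptors of activating receptors. Fcer1g, the Fc receptor gamma chain, averaged 83.6 ± 9.92 CPM in NOD.B10 against 153 ± 20.3 CPM in BL/10 (SD, n = 3, log2 fold change -0.87, standard error 0.13, adjusted p = 0.00446 in edgeR). Tyrobp (DAP12) had a log2 fold change of -0.51 (adjusted p = 0.0482 in edgeR) and Hcst (DAP10) of -0.50 (adjusted p = 0.0295 in edgeR). With each library left out, 1 to 3 of the list were lower and 1 to 3 higher, the fewest lower ones without any single NOD.B10 library or BL/10 replicate 2.

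Of the inhibitory arm, the phosphatase genes Ptpn6 (SHP-1, log2 fold change 0.10) and Ptpn11 (SHP-2, -0.04) did not pass. Inpp5d (SHIP1) was higher in NOD.B10 (0.37, adjusted p = 0.0426 in edgeR). Apart from the phosphatases, Il4ra was also higher in NOD.B10 (0.62, adjusted p = 0.0441 in edgeR). It encodes the interleukin-4 receptor chain with which CD300f associates. Havcr1, which encodes TIM-1, a ligand of LMIR5, had the largest difference of the list. It averaged 15.9 ± 2.27 CPM in NOD.B10 against 3.98 ± 0.44 CPM in BL/10 (SD, n = 3, log2 fold change 2.00, adjusted p = 0.000254 in edgeR). The related gene Timd4 (TIM-4) did not pass (-0.19, adjusted p = 0.18 in edgeR). Syk, Grb2, Tlr4 and Cd14 did not pass either, with log2 fold changes from 0.15 to 0.37.

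Other paired receptors of myeloid cells were lower more often than higher. Of 29 tested genes, 11 were lower in NOD.B10 and 2 higher, and the median log2 fold change was -0.26. Clec12a, an inhibitory lectin of neutrophils and monocytes, averaged 42.7 ± 2.40 CPM in NOD.B10 against 140 ± 22.8 CPM in BL/10 (SD, n = 3). Trem2, a DAP12-coupled receptor of macrophages, averaged 1.90 ± 0.298 and 6.93 ± 1.16 CPM. Lilra5, an activating receptor, was among the higher genes, with 30.1 ± 4.04 and 7.96 ± 0.670 CPM. Cd200r4, which also couples to DAP12, had 0, 0 and 4 reads in NOD.B10 against 119, 95 and 116 in BL/10. Without NOD.B10 replicate 1, or without BL/10 replicate 3, 7 of the receptor genes were lower.

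Marker genes of several cell types differed between the strains. Of 18 neutrophil genes, 14 were lower in NOD.B10, and their summed level was 2420 to 2820 CPM in NOD.B10 and 6600 to 13800 CPM in BL/10. The 14 included genes of granule proteins and calprotectin, such as Camp (log2 fold change -2.40), Ltf (-2.38), S100a8 (-2.29) and Ngp (-2.23). Cxcr2, Csf3r, Il1b and Stfa2l1 did not pass, with log2 fold changes from -0.01 to 0.65. Of 12 genes of mast cells, basophils and eosinophils, 10 were lower, including Epx (-3.50) and Prg2 (-3.01), and their summed level was 184 to 233 CPM against 668 to 1170 CPM. The summed levels of both lists did not overlap between the strains, although some single genes of each list did. Without NOD.B10 replicate 1, 9 neutrophil genes were lower. Without NOD.B10 replicate 3, 2 neutrophil genes were higher, as were 2 monocyte genes.

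Within BL/10 the neutrophil list summed to 6600, 13800 and 12100 CPM in replicates 1, 2 and 3, which also differ in labelled age. Genes of the list did not move alike, as S100a8 had 1630, 3350 and 2770 CPM and Cxcr2 had 32.9, 37.4 and 41.1 CPM. Cd300ld had 34.3 to 35.4 CPM in these libraries, and a link to the list was not tested. Fewer genes passed in the lists of monocytes and macrophages. Of 14 monocyte genes, Ly6c2 (log2 fold change -3.98) and Ear2 (-3.84) were lower, and 4 of the list were lower without BL/10 replicate 1. Their summed level was 1090 to 1230 CPM in NOD.B10 and 1270 to 1640 CPM in BL/10. Of 13 red pulp macrophage genes, 2 were higher and 3 lower, and of 7 marginal zone macrophage genes, 1 was higher and 1 lower, and the summed levels of both lists overlapped between the strains. The count of higher genes was 1 in the red pulp list without any 1 library except NOD.B10 replicate 3, and 0 in the marginal zone list without any 1 library except NOD.B10 replicate 2. Of 12 dendritic cell genes, 0 passed in edgeR in either direction, 4 had an unadjusted p under 0.05, and 1 was lower in DESeq2. In the same RNA, 8 of 10 T cell genes were higher in NOD.B10 (Cd8a and Cd8b1 did not pass), with summed levels of 805 to 1070 CPM against 395 to 517 CPM in BL/10 and a median log2 fold change of 1.25. Of 8 plasma cell genes, 6 were higher and the median was 0.64, and 3 were higher without NOD.B10 replicate 3 or BL/10 replicate 3. No marker of these lists was absent from the libraries of a strain, and their part in the CD300 results was not tested.

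**Figure D5:**
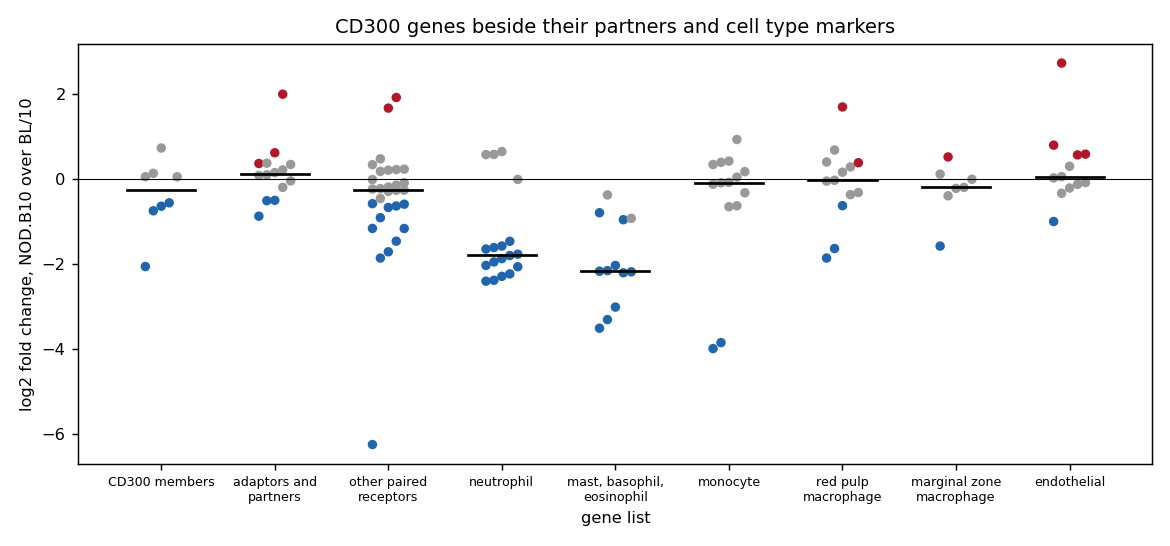
Points give the log2 fold change of NOD.B10 over BL/10 of each tested gene in 9 lists, colored blue (lower) or red (higher) where the adjusted p was under 0.05, with black lines for the medians. The medians of the neutrophil list (-1.78) and of the mast cell, basophil and eosinophil list (-2.16) lie below that of the CD300 members (-0.25).

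Genes with a profile like that of a member were sought among 14208 tested genes of at least 1 CPM outside the family. Likeness was the root mean square difference of log2 CPM over the 6 libraries, after each gene was centered on its mean. Cd300ld was most like Map7 (0.128), Suclg2 (0.181) and Mfsd13a (0.190), where its own spread around its mean was 1.05. Cd300e was most like Mlkl (0.062), Cd160 (0.063) and Slc41a3 (0.090), and Cd300lb most like Mgst1 (0.062), Dkkl1 (0.086) and Pimreg (0.092). Cd300a was most like Mertk (0.047), Tspan4 (0.049) and Ltbr (0.055), of which Mertk encodes a macrophage receptor for dying cells. For the remaining members the nearest genes were Aspscr1 for Cd300c2 (0.026), Epm2a for Cd300ld3 (0.029), Per3 for Cd300lf (0.041) and Hspa8 for Cd300lg (0.060). These values order genes by likeness only, since 6 libraries of 2 strains allow many close profiles.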

How the data were processed

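RNA-seq was performed by the study on spleens of 3 NOD.B10 and 3 BL/10 females. The deposited values are raw counts of reads per gene and library, which the authors made with featureCounts version 1.5.1 on exons of Ensembl annotation 84 of mouse build GRCm38, per the header of the table. The study's methods name Tophat2 as the aligner, while the submitters' processing notes name HISAT2 version 2.0.5. No option for strand, or for reads that map to several places, stands in the counting command. The table also holds another value per gene, the deposited length of its exons. Gene symbols were matched by identifier from GENCODE M21 of the same build, for 47224 of 47729 identifiers.

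Libraries were assigned to strains by the sample descriptions and column names. The titles name the opposite strain. For BL/10 replicate 3, the match of column and sample rests on library number and strain alone.

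Counts were analysed with R version 4.3.3 and edgeR version 4.0.16. Genes were kept by filterByExpr (15330 genes), normalized by TMM, and compared by the quasi-likelihood test, with fold changes of NOD.B10 over BL/10 and p-values adjusted by Benjamini-Hochberg, at a threshold of 0.05. Each standard error was derived from the F statistic of the gene, and 95% intervals from the t distribution of the fit. Normalized counts are TMM CPM, with the SD over 3 libraries. The procedure was run on simulated counts. Their libraries were drawn independently, with no difference in age or in pancreas acinar genes, so the run does not cover these features of the data. With 3 libraries a strain, an exact permutation test of 1 gene cannot give a p below 0.1. Nothing in the sources ties the replicate numbers to shared litters or days. The p-values set the difference between the strains against the spread between libraries of a strain. They do not separate strain from labelled age.

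The alternatives were DESeq2 version 1.42.0, RLE and upper-quartile factors, leaving out 421 hemoglobin, immunoglobulin and pancreas acinar genes, other filters, a replicate block, the libraries labelled 26 weeks alone, a stricter threshold, and leaving out each library. The members and lists were chosen with earlier results of these data known. The lists came from general knowledge. The genes named were all members, the other cluster genes and the partners (1 of which is not reported here), up to 4 of the called genes with the largest change in each other list and defining markers, and the 3 genes with the most similar profile to a member. Any other gene was chosen after its values were seen. For sequence features, GENCODE M21 transcripts and RefSeq promoters of GRCm38.p6 were used. Base identity came from pairwise alignment, with gaps counted as differences. Protein features were not analysed here. For the genes around the cluster, the region was set after the data were seen, because Cd300lg lies far away.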

Additional observations from a re-analysis of the deposited data

How the results depend on the processing

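The count of 4 CD300 members lower in NOD.B10 was found again with DESeq2, RLE and upper-quartile factors, no filter beyond 1 count and the replicate block. With adjusted p under 0.01, or in the libraries labelled 26 weeks only, 1 member (Cd300ld) was called in all, and 1 was lower. With each library left out, between 2 and 5 members were called and between 2 and 4 were lower, with 2 called without NOD.B10 replicate 2 or BL/10 replicate 3. The count of higher members, 0 in edgeR, was 1 (Cd300ld3) without hemoglobin, immunoglobulin and pancreas acinar genes, with at least 10 counts in every library, and without BL/10 replicate 1, so that it ran from 0 to 1 with each library left out. The libraries did not overlap for 6 members with raw library totals. Direction was not stable for Cd300a, with log2 fold changes of -0.068 without NOD.B10 replicate 1 and -0.027 without BL/10 replicate 1 and a range up to 0.18 with each library left out, or for Cd300lf, with -0.049 without NOD.B10 replicate 1 and a range up to 0.29, and the cause was not tested. With raw library totals, the level of Cd300ld per kb in BL/10 was 13 CPM against 13.2 CPM, a move just over its SD of 0.242, and the other 15 levels per kb of the members moved by less than their SD. In the replicate block fit, Cd300e had a log2 fold change of -0.75 and Cd300lb of -0.65. Same-numbered libraries of the strains had correlations of 0.0795, 0.437 and -0.130 of their deviations from the strain means over 10187 genes, so the numbers were not taken as pairs, and the block called 2889 genes in all against 2656. Over all genes, 1001 were called in the libraries labelled 26 weeks, 1269 without NOD.B10 replicate 1, 1395 without NOD.B10 replicate 3, 1580 and 1744 without BL/10 replicates 2 and 3, and 4107 without BL/10 replicate 1. Low counts limited Cd300ld3, Cd300ld2 and Cd300c, and a count of 3, taken as the floor, was 0.163 to 0.201 CPM, which covers counting error only.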
